A study of Homo sapiens with 6 samples.

Results

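The integrin subunits described here were 10 genes, ITGA1, ITGA2, ITGA3, ITGA5, ITGA6, ITGAV, ITGB1, ITGB3, ITGB5 and ITGB8, chosen by name from the 67130 genes listed in the expression table. All 10 had a mean of at least 1 FPKM (mapped fragments per kilobase of transcript, scaled to the depth of the sample) and were among the 12025 genes that could be tested. Integrins are cell surface receptors made of 1 alpha and 1 beta subunit, which bind the extracellular matrix on the outside and connect to actin filaments on the inside. The alpha subunit largely sets which matrix protein is bound, and most alpha chains of adherent cells pair with the beta chain encoded by ITGB1. The alpha-v chain differs in that it also pairs with the chains of ITGB3, ITGB5 and ITGB8, and these dimers recognise the arginine-glycine-aspartate (RGD) motif of vitronectin, fibronectin and latent TGF-beta. In retinal pigment epithelium, integrins hold the cell layer to its basement membrane, and the alpha-v beta-5 dimer binds shed photoreceptor membranes before they are engulfed.

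The RNA came from hTERT-RPE1 cells, a telomerase-immortalized line of human retinal pigment epithelial origin, that carried a lentiviral Tet-On hairpin against OFD1, a centriolar satellite and ciliary protein. Control samples (n = 3) grew without doxycycline and OFD1-depleted samples (n = 3) with 200 ng/mL doxycycline, and both groups were sampled at 72 hours. Both groups carried the hairpin vector and came from infected cells selected with antibiotics. No group received doxycycline without the hairpin, so the action of doxycycline and the loss of OFD1 cannot be told apart. The labels number the samples of each group from 1 to 3 without describing how the cultures were kept apart, so p-values measure only the spread between these samples. These are bulk samples, in which fewer cells expressing a gene and less RNA per cell cannot be told apart.

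OFD1 itself was 3.34, 3.62 and 3.44 FPKM in control samples and 0.795, 0.763 and 1.43 FPKM in OFD1-depleted samples, a log2 difference of -1.75 (SE 0.255, limma adjusted p = 0.00085). Of the pigment epithelium markers, RPE65, RLBP1, PMEL and TYR were at or under 0.627 FPKM in every sample and BEST1 under 0.05 FPKM in all but OFD1-depleted replicate 2, where it was 4.33 FPKM, whereas MITF ranged from 5.06 to 7.75 FPKM. Of the simple epithelial markers, KRT8 and KRT18 ranged from 111 to 218 FPKM, while EPCAM was listed at 0 and CDH1 was at or under 0.0492 FPKM. The photoreceptor genes PDE6B, RCVRN and CRX were listed at 0 in all samples, and the leukocyte genes PTPRC, CD74 and LCP1 and the endothelial genes PECAM1, CDH5 and VWF were at or under 0.187 FPKM. CD68, the remaining leukocyte marker, ranged from 31.4 to 40.7 FPKM. OFD1-depleted replicate 2 stood apart from the other samples in how its values varied with mRNA length, and values without it are given for each subunit and for the summed levels.

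Compared with control samples, OFD1-depleted samples held less mRNA of ITGA3, ITGA5, ITGA6 and ITGB5 and more of ITGB3 and ITGB8. ITGA3, ITGA6 and ITGB5 were at 51.7%, 54.6% and 52.9% of their control means and ITGA5 at 68.8%, while ITGB3 was at 276% and ITGB8 at 205%. ITGA1, ITGA2, ITGAV and ITGB1 did not pass the test, and their OFD1-depleted means lay between 84.6% and 107% of control. In all, 6 of 10 subunits differed at an adjusted p under 0.05 by limma, 4 of them lower and 2 higher, beside 17.0% of all genes tested that differed in either direction, 11.9% that were lower and 5.07% that were higher. In the same 6 genes, the 3 values of one group all lay outside those of the other, which held for 36.1% of all genes tested. The median log2 difference of the 10 subunits was -0.23, and that of all genes tested was -0.03. The median of the subunits rested on OFD1-depleted replicate 2, as it was 0.03 without that sample (all genes -0.02) and -0.02 after a trend with mRNA length was removed (all genes 0.05).

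Of the 2039 genes past the threshold, 610 were higher in OFD1-depleted samples. When the values were scaled to the same total in each sample, 270 of 2260 were higher, and after quantile normalization 1096 of 2408 were. The scaling to the same total also moved the median log2 difference of all genes from -0.03 to -0.18. The 4 lower and 2 higher subunits passed the threshold in the same directions under both of these scalings.

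**Figure D1:**
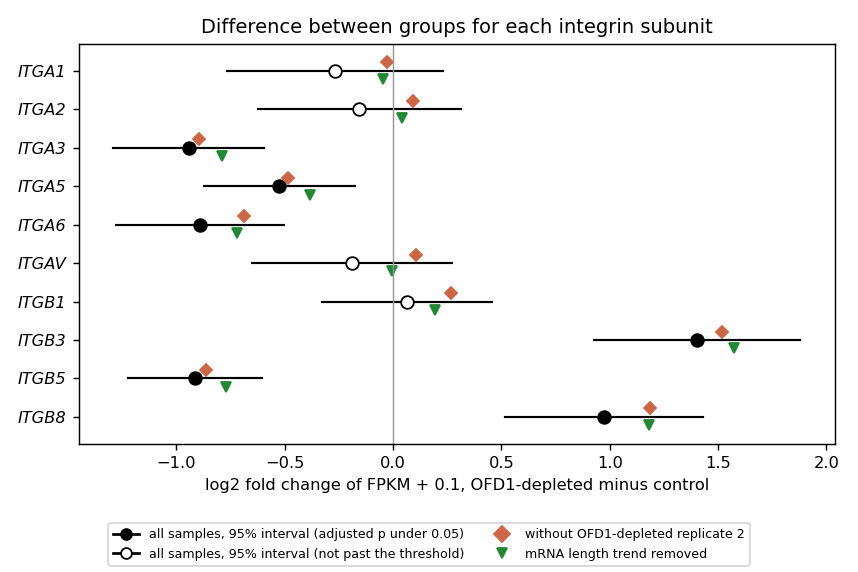
The log2 fold change of FPKM + 0.1, OFD1-depleted minus control, for each of the 10 subunits, with circles and bars for the estimate and 95% interval from all samples (filled where the adjusted p was under 0.05), diamonds for the estimate without OFD1-depleted replicate 2 and triangles for the estimate after a trend with mRNA length was removed. ITGB3 at 1.40 and ITGB8 at 0.97 lie to the right of 0, ITGA3 at -0.94, ITGB5 at -0.91, ITGA6 at -0.89 and ITGA5 at -0.52 to the left, and the intervals of the other 4 cross 0.

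The sequences ahead of the start sites are shown for 3 of the subunits that were lower, ITGA5, ITGA6 and ITGB5, and for ITGA1, which did not pass the test. These windows were chosen because they overlap no annotated exon of their own gene, and exons of other genes were not checked. ITGA3 and ITGB3 have no entry among the windows used. More than 1 start site is listed for ITGA6, with 2 windows, and for ITGB5, with 3. For these genes the window nearest the outer end of the gene was taken, and which start these cells use was not tested. Each line holds the 250 bases before the RefSeq start site, read 5′ to 3′ on the strand of the gene (RefSeq, GRCh38.p14). They lie at chr12:54419267-54419516 on the minus strand for ITGA5, chr2:172427086-172427335 on the plus strand for ITGA6, chr3:124901419-124901668 on the minus strand for ITGB5 and chr5:52787666-52787915 on the plus strand for ITGA1. Capitals mark the matches to the motifs named after them.
ITGA5: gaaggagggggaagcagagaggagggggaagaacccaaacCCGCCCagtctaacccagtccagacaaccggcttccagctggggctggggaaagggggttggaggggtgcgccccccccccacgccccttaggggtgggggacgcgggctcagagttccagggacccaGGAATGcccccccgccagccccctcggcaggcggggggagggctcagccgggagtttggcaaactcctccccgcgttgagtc
ITGA6: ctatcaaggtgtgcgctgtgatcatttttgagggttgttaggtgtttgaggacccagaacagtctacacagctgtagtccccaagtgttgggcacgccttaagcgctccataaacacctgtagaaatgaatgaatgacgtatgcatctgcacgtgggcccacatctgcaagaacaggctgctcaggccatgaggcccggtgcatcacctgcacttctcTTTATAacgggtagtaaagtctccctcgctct
ITGB5: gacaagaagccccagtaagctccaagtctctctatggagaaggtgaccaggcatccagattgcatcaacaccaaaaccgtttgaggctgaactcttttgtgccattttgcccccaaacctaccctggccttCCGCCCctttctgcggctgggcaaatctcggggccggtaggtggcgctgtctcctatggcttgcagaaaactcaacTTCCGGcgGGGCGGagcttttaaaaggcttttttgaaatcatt
ITGA1: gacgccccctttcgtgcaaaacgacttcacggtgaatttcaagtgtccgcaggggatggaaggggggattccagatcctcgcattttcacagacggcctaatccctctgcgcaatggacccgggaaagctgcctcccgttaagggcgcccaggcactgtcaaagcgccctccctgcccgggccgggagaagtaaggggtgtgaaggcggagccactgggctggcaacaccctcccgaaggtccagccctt

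Exact matches on both strands were sought in the window of 300 bases that also takes in the 50 bases after the start. The motifs were the SP1 box GGGCGG, held by 44.95% of 35116 such windows of all genes, the AP-1 site TGANTCA, held by 7.709%, the ETS site CCGGAA, held by 17.25%, the TEAD site GGAATG, held by 14.03%, and TATAAA, held by 11.53%. The ITGA5 window held an SP1 box at -210 to -205, a TEAD match at -82 to -77 and an AP-1 match at -6 to 0, whose last base is the start site itself and lies past the printed bases, so that this match is not capitalised. The ITGA6 window held TATAAA, on the opposite strand, at -32 to -27, and an SP1 box after the start at 33 to 38. The ITGB5 window held SP1 boxes at -119 to -114 and -35 to -30 and an ETS match at -43 to -38. No match was found in the ITGA1 window, and no motif other than the SP1 box was shared by the 3 windows of lower genes. The SP1 box did not mark the lower genes. It was also found in the windows of ITGA2 (4 matches) and ITGB1 (3), which did not pass the test, and of ITGB8 (2), which was higher. No SP1 box was found in the ITGAV window. Positions count the start site as 0 and the base before it as -1. A match describes the letters and says nothing of binding in these cells. By base composition, 6 of the 8 subunits with a window were above the median of all windows, which was 58.67% G and C, with ITGA6 at 53% and ITGB5 at 49.67% below it. Each value is for the 1 window taken, although ITGA6, ITGAV and ITGB1 have 2 listed and ITGB5 has 3. The window taken for ITGB1 starts 47562 bases from the outer end of the gene.

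The 10 subunits spanned a wide range of levels, and FPKM, being per length, allows the genes to be set side by side. In control samples the order by mean was ITGB1, ITGA3, ITGA5, ITGB5, ITGAV, ITGA6, ITGA2, ITGA1, ITGB8 and ITGB3. Only ITGA3 and ITGA5 overlapped as neighbours in that order, with means of 419 ± 69.3 and 294 ± 56.4 FPKM (SD, n = 3). After depletion ITGB1, ITGA3, ITGA5, ITGB5 and ITGAV kept their places, ITGA3 and ITGA5 overlapped again, and the order then ran ITGA6, ITGA2, ITGB8, ITGB3 and ITGA1. Of the last 5, ITGA6 overlapped ITGA2, ITGA2 overlapped ITGB8 and ITGB8 overlapped ITGB3, while ITGB3 lay above ITGA1 in every sample of the group. Together the 10 subunits made up 93.1% ± 0.164 of the summed FPKM of all 26 integrin subunit genes in control samples and 92.5% ± 1.07 in OFD1-depleted samples (SD, n = 3).

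Both laminin-binding alpha subunits among the 10 were lower in OFD1-depleted samples. ITGA3 (ENSG00000005884, chr17:50055968-50090481, plus strand) encodes the alpha-3 chain, which with beta-1 binds laminins of basement membranes. It was 429.7, 345 and 482 FPKM in control samples and 244, 202 and 203 FPKM in OFD1-depleted samples. Every OFD1-depleted value was below every control value, and the log2 difference was -0.94 (SE 0.158, 95% interval -1.29 to -0.60, limma adjusted p = 0.00201). ITGA6 (ENSG00000091409, chr2:172427354-172506459, plus strand) encodes the alpha-6 chain, the laminin receptor subunit that pairs with beta-1 or with the beta-4 chain of hemidesmosomes. It was 11.0, 11.7 and 11.6 FPKM in control samples and 6.78, 4.59 and 7.34 FPKM in OFD1-depleted samples. Again the groups did not overlap, at a log2 difference of -0.89 (SE 0.176, limma adjusted p = 0.00563), and without OFD1-depleted replicate 2, its lowest sample, the difference was -0.69 (adjusted p = 0.0025). Although ITGA3 exceeded ITGA6 by a ratio of 36.7 ± 6.47 in control samples, the ratio was 35.9 ± 8.17 in OFD1-depleted samples (SD, n = 3, two-sided exact permutation p = 0.9). ITGB4, which encodes the other partner of alpha-6, was under 0.5 FPKM in all samples and was not tested.

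ITGA7, a laminin-binding alpha subunit outside the 10, was 42.4, 34.2 and 48.1 FPKM in control samples and 22.7, 20.6 and 21.1 FPKM in OFD1-depleted samples, a log2 difference of -0.94 (SE 0.145, limma adjusted p = 0.00125). The summed FPKM of the 3 laminin-binding alpha subunits ITGA3, ITGA6 and ITGA7 was 472 ± 76.2 in control and 244 ± 25.6 in OFD1-depleted samples (SD, n = 3). These sums did not overlap, and their two-sided exact permutation p of 0.1 is the smallest that 3 samples against 3 can give. ITGA3 made up 419 FPKM of the control mean, so the sum largely follows that gene. Without OFD1-depleted replicate 2 the OFD1-depleted mean was 253 FPKM, or 53.5% of control, again with no overlap.

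The collagen-binding subunits did not pass the test. ITGA1 (ENSG00000213949, chr5:52787916-52959209, plus strand) encodes the alpha-1 chain, a receptor for basement membrane collagen. It was 2.88, 2.56 and 2.85 FPKM in control samples and 2.65, 1.61 and 2.76 FPKM in OFD1-depleted samples. The groups overlapped, and the log2 difference was -0.27 (95% interval -0.77 to 0.23, limma adjusted p = 0.469). PELO, a gene of ribosome rescue that lies within ITGA1 on the same strand, had a mean of 9.38 FPKM without and 8.91 FPKM with OFD1 depletion, and the values do not show how reads from their shared stretch were divided. ITGA2 (ENSG00000164171, chr5:52989340-53094779, plus strand), its neighbour on the chromosome, encodes the alpha-2 chain, a receptor for fibrillar collagen. It was 5.18, 4.21 and 5.13 FPKM in control samples and 5.04, 3.03 and 5.24 FPKM in OFD1-depleted samples. These values overlapped too, with a log2 difference of -0.16 (95% interval -0.62 to 0.31, limma adjusted p = 0.667). For both genes OFD1-depleted replicate 2 was the lowest sample of all, and without it their differences were -0.03 and 0.09, with adjusted p = 0.915 and 0.668. The other collagen-binding subunits tested, ITGA10 and ITGA11, were not past the threshold either.

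The alpha subunits that recognise RGD differed from each other. ITGA5 (ENSG00000161638, chr12:54395261-54419266, minus strand) encodes the alpha-5 chain, which with beta-1 forms the classic fibronectin receptor. It was 299, 236 and 348 FPKM in control samples and 219.6, 191 and 197 FPKM in OFD1-depleted samples. The groups did not overlap, and the log2 difference of -0.52 (SE 0.159, 95% interval -0.87 to -0.17) was just inside the threshold, with a limma adjusted p of 0.0440. The call was lost when any sample other than control replicate 2 was left out, with adjusted p from 0.0568 without OFD1-depleted replicate 2 to 0.208 without control replicate 3, while the difference stayed between -0.68 and -0.39, and with median-of-ratios scaling (adjusted p = 0.0744). Without OFD1-depleted replicate 2 the log2 difference of ITGA5 was -0.48. ITGAV (ENSG00000138448, chr2:186590056-186680901, plus strand) encodes the alpha-v chain. It was 49.5, 48.1 and 47.3 FPKM in control samples and 52.3, 28.1 and 51.5 FPKM in OFD1-depleted samples. OFD1-depleted replicates 1 and 3 were above all control samples and replicate 2 was below them, so that the log2 difference of -0.19 (95% interval -0.65 to 0.27, limma adjusted p = 0.588) became 0.10 (adjusted p = 0.459) without replicate 2.

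ITGB1 (ENSG00000150093, chr10:32887273-33005792, minus strand), which encodes the beta-1 chain shared by most alpha subunits, had the highest level of the 10 in both groups. It was 771, 746 and 735 FPKM in control samples and 916, 595 and 889 FPKM in OFD1-depleted samples. As with ITGAV, replicates 1 and 3 of the OFD1-depleted group were above all control samples and replicate 2 was below them. The log2 difference was 0.07 (95% interval -0.33 to 0.46, limma adjusted p = 0.839), and it was -0.08 when values were scaled to the same total and -0.20 after quantile normalization, so no direction is given. Without OFD1-depleted replicate 2 the OFD1-depleted mean was 902 FPKM, or 120.2% of control, and the log2 difference was 0.27 (adjusted p = 0.0943). ITGB1P1, a processed pseudogene of ITGB1 at chr19:14621634-14622242, had means of 149 ± 7.46 FPKM without and 157 ± 18.05 FPKM with OFD1 depletion (SD, n = 3). Weighted by the 609 bases of the pseudogene and the mRNA length of ITGB1, this came to between 2.87% and 3.78% of the ITGB1 signal per sample. How reads that match both were divided was not stated.

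Among the 10 subunits, the 3 beta chains other than beta-1 are partners of alpha-v, and they differed between groups in opposite directions. ITGB5 (ENSG00000082781, chr3:124761948-124901418, minus strand) encodes the beta-5 chain of the vitronectin receptor. It was 124, 103 and 133 FPKM in control samples and 70.5, 59.0 and 61.2 FPKM in OFD1-depleted samples. The groups were well separated, at a log2 difference of -0.91 (SE 0.140, 95% interval -1.22 to -0.61, limma adjusted p = 0.00121).

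ITGB3 (ENSG00000259207, chr17:47253827-47313743, plus strand) encodes the beta-3 chain, best known from platelets and osteoclasts, where its dimers bind fibrinogen, vitronectin and osteopontin. It was the lowest of the 10 in control samples, at 1.15, 1.14 and 1.59 FPKM, against 3.86, 3.0 and 3.82 FPKM in OFD1-depleted samples. Every OFD1-depleted value was above every control value, and the log2 difference of 1.40 (SE 0.217, 95% interval 0.93 to 1.88, limma adjusted p = 0.00125) was the largest in size among the 10. ITGB8 (ENSG00000105855, chr7:20330702-20415754, plus strand) encodes the beta-8 chain, which with alpha-v activates latent TGF-beta. It was 2.09, 2.12 and 2.04 FPKM in control samples and 4.71, 3.08 and 5.03 FPKM in OFD1-depleted samples. The groups did not overlap, with a log2 difference of 0.97 (SE 0.208, 95% interval 0.52 to 1.43, limma adjusted p = 0.00852), or 1.19 (adjusted p = 0.000771) without OFD1-depleted replicate 2. Both genes were low, and a difference of log2(FPKM + 0.1) understates the change of low genes.

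ITGB5 remained far above ITGB3 and ITGB8 in both groups. The ratio of ITGB5 to ITGB8 was 57.9 ± 8.57 in control and 15.4 ± 3.51 in OFD1-depleted samples (SD, n = 3), and the ratio of ITGB5 to ITGB3 was 94.3 ± 12.5 and 17.98 ± 1.84. Neither ratio overlapped between groups (two-sided exact permutation p = 0.1 for each, the smallest possible). The summed FPKM of ITGB3, ITGB5, ITGB6 and ITGB8 was 124 ± 15.9 in control and 71.6 ± 7.12 in OFD1-depleted samples. ITGB5 made up 120 FPKM of the control mean, so the sum largely follows that gene. Without OFD1-depleted replicate 2 the OFD1-depleted mean of the sum was 74.8 FPKM, or 60.4% of control. ITGB6, also a partner of alpha-v, was under 0.3 FPKM throughout and not tested.

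Added up by kind, the 6 alpha subunits gave 797, 647 and 897 FPKM in control samples and 531, 430.4 and 467 FPKM in OFD1-depleted samples, sums that did not overlap (two-sided exact permutation p = 0.1, the smallest possible). The 4 beta subunits gave 899, 852 and 873 FPKM in control samples and 995, 660.4 and 959 FPKM in OFD1-depleted samples, which overlapped (exact permutation p = 1). This overlap came from OFD1-depleted replicate 2 alone. The other OFD1-depleted sums were both above every control sum and averaged 977 FPKM, or 112% of control. ITGB1 made up 902 FPKM of that average, and its direction turned with scaling, so no direction is given for the beta sum. The FPKM of all genes also summed to more in OFD1-depleted replicates 1 and 3 (444337 and 433262) than in control samples (408302 to 414547). Without OFD1-depleted replicate 2 the alpha sums of the OFD1-depleted group remained below all control sums, at 63.9% of control. Over all integrin subunit genes, the ratio of alpha to beta FPKM was 1.02 ± 0.142 in control and 0.680 ± 0.110 in OFD1-depleted samples (SD, n = 3), again with no overlap, and 0.618 without OFD1-depleted replicate 2.

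Shares within each kind do not depend on the scaling of a sample. ITGA3 made up 46.5% ± 0.850 of all alpha FPKM in control samples and 37.3% ± 1.31 in OFD1-depleted samples (SD, n = 3). The share of ITGA5 was 32.5% ± 1.43 and 34.9% ± 0.872, so that a subunit lower in FPKM had a share that was not lower. The share of ITGAV was 5.45% ± 0.865 and 7.49% ± 1.96 and overlapped between groups, as did those of ITGA1 and ITGA6. Grouped by ligand, laminin-binding subunits held 52.4% ± 0.713 of alpha FPKM in control and 42.0% ± 1.12 in OFD1-depleted samples. Collagen-binding subunits held 4.89% ± 0.360 and 7.99% ± 0.734, and RGD-binding subunits 38.0% ± 0.563 and 42.4% ± 1.25. ITGA3 made up most of the laminin-binding share and ITGA5 most of the RGD-binding share in both groups, so each of these shares largely follows 1 gene. The RGD-binding sum of the OFD1-depleted group was 71.9% of the control mean, with no overlap, so the larger RGD-binding share went with a lower level. The collagen-binding sum was at 105% and overlapped between groups (exact permutation p = 0.6). Of its control mean of 44.3 FPKM, ITGA11 made up 34.3. Without OFD1-depleted replicate 2 the RGD-binding sum was at 75.9%, with no overlap, and the collagen-binding sum at 115%, with overlap. Among beta subunits, ITGB1 held 85.5% ± 1.65 of the FPKM in control and 91.4% ± 1.41 in OFD1-depleted samples, and ITGB5 held 13.7% ± 1.60 and 7.45% ± 1.30. ITGB3 held 0.147% ± 0.0295 and 0.413% ± 0.0350, and ITGB8 held 0.237% ± 0.00921 and 0.487% ± 0.0319. Apart from the shares of ITGA1, ITGA6 and ITGAV, these shares did not overlap between groups, each with an exact permutation p of 0.1, and OFD1-depleted replicate 2 lay on the same side as the other OFD1-depleted samples in every one of them. Without that sample the shares of ITGA1 and ITGAV no longer overlapped either and were higher in OFD1-depleted samples, at means of 0.448% and 8.60%.

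**Figure D2:**
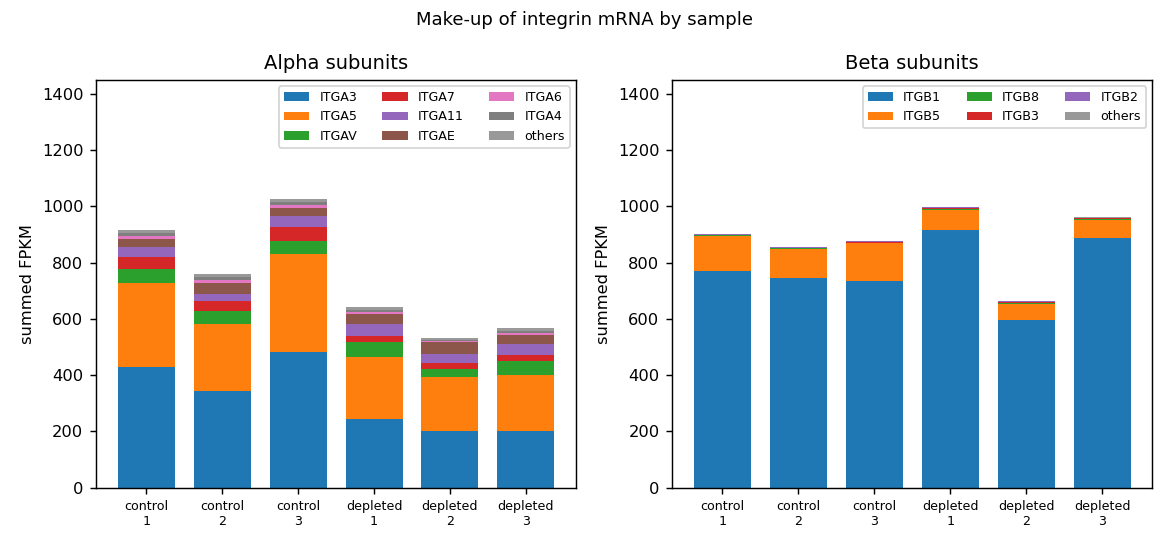
Stacked bars of FPKM per sample for alpha subunits (left) and beta subunits (right), starting at 0. The alpha bars are shorter in all OFD1-depleted samples, mainly through ITGA3 and ITGA5, the ITGB5 segment is smaller in all of them, and the beta bar of OFD1-depleted replicate 2 is the shortest of the 6.

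OFD1-depleted replicate 2 deviated from the other 2 samples of its group according to mRNA length. Its median log2 deviation was 0.254 over the shortest tertile of the genes tested, -0.0761 over the middle tertile and -0.367 over the longest tertile, the mRNAs longer than 4207 bases. In the other 5 samples the median of the longest tertile lay between -0.00986 and 0.271. The mRNAs of the 10 subunits were 3735 to 10736 bases long, with 9 of 10 in the longest tertile, and all 10 subunits were below the other OFD1-depleted samples in replicate 2, by -0.880 to -0.124 with a median of -0.604. ITGAV in replicate 2 was 54.2% of the mean of the other OFD1-depleted samples. ITGB1, at 3735 bases the 1 subunit outside the longest tertile, was at 66.0%. ITGA3, ITGA5 and ITGB5, all within the longest tertile, were between 89.5% and 91.6%. The cause of the low subunit values in replicate 2 was not tested. Between groups, the median log2 difference of all genes was 0.07 for the shortest, -0.04 for the middle and -0.13 for the longest tertile of mRNAs. After a trend with length was removed from each sample, ITGA3, ITGA6 and ITGB5 remained lower (-0.79, -0.72 and -0.77) and ITGB3 and ITGB8 higher (1.57 and 1.18), whereas ITGA5 was at -0.38 (limma adjusted p = 0.0699). Without OFD1-depleted replicate 2, 5 of the 10 subunits passed the threshold, 3 lower and 2 higher, beside 23.8% of all genes tested, and ITGA5 did not. The log2 differences of ITGA3, ITGB5 and ITGB3 were then -0.90, -0.86 and 1.52.

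**Figure D3:**
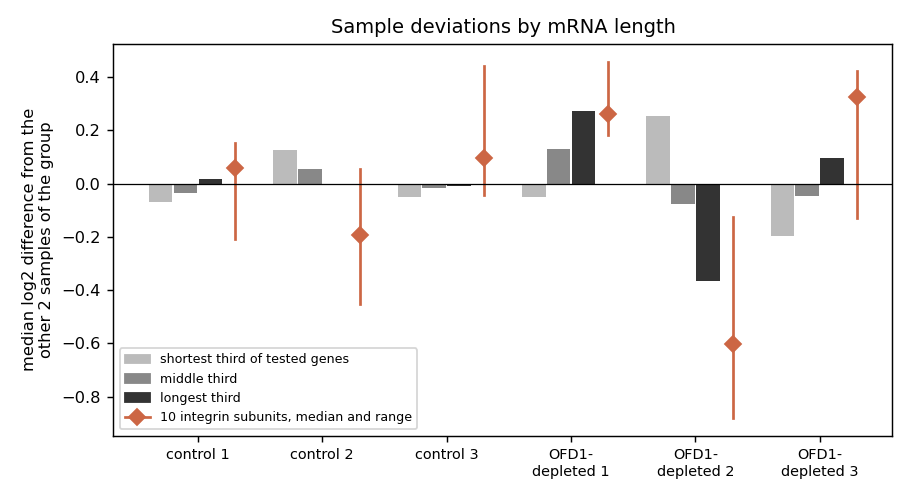
For each sample, bars give the median log2 difference from the other 2 samples of its group over the shortest, middle and longest tertile of tested genes by mRNA length, and the diamond and line give the median and range of the 10 subunits. In OFD1-depleted replicate 2 the bars run from 0.254 down to -0.367 and the subunits lie at a median of -0.604.

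A set of 119 genes that act with integrins was then followed, of which 89 were tested and 18 passed the threshold, 12 lower and 6 higher. These were 20.2%, 13.5% and 6.74% of the genes tested, near the shares of 17.0%, 11.9% and 5.07% over all genes, and without OFD1-depleted replicate 2 the count was 26, or 29.2% beside 23.8% of all genes. Their median log2 difference was -0.05, beside -0.03 for all genes. The counts per list given below are small, and none was tested against the shares over all genes. Of 12 other alpha subunits 5 were tested, and of 4 other beta subunits 1 was. ITGA7 was lower, as given above, and so was ITGB2, the beta chain of leukocyte integrins, at 2.90 ± 0.435 FPKM without and 1.39 ± 0.479 FPKM with OFD1 depletion (SD, n = 3), a log2 difference of -1.04 (limma adjusted p = 0.0177). The call for ITGB2 was lost without control replicate 1, control replicate 3 or OFD1-depleted replicate 3, with adjusted p from 0.0632 to 0.0804.

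Of the ligands that integrins recognise through RGD or related sites, 9 of 14 were tested, and 2 were lower and 2 higher. FBN1, which encodes fibrillin-1 of elastic microfibrils, was 168, 128 and 169.5 FPKM in control samples and 26.6, 16.8 and 25.1 FPKM in OFD1-depleted samples, a log2 difference of -2.78 (SE 0.186, limma adjusted p = 1.03e-05). THBS1, which encodes the matricellular protein thrombospondin-1, was 219.7, 203 and 259.8 FPKM in control samples and 537, 355 and 522 FPKM in OFD1-depleted samples. Its log2 difference was 1.04 (SE 0.180, limma adjusted p = 0.00251), in the opposite direction to FBN1. TNC, encoding tenascin-C, was higher by 0.85 (adjusted p = 0.0236), a call lost without control replicate 2 or OFD1-depleted replicate 1 or 3 (adjusted p from 0.0781 to 0.0819) and after scaling to the same total (0.0663). CCN1 was the remaining gene past the threshold, at 73.8% of control, with a limma adjusted p of 0.0423 that lies near the limit. How the CCN1 call fared when samples were left out is not given here. FN1, which encodes fibronectin, did not pass the threshold, at 1765 ± 383 FPKM without and 1656 ± 397 FPKM with OFD1 depletion (SD, n = 3).

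Among fibrous and network collagens, 5 of 10 were tested, with 1 lower and 1 higher. COL1A1, a chain of fibrillar type I collagen, was 7.66, 8.42 and 9.96 FPKM in control samples and 28.4, 21.9 and 23.0 FPKM in OFD1-depleted samples, with a log2 difference of 1.48 (SE 0.152, limma adjusted p = 9.37e-05). COL6A3, a chain of microfibrillar type VI collagen, was lower, at 2.79 ± 0.680 FPKM without and 1.22 ± 0.337 FPKM with OFD1 depletion (SD, n = 3), with a log2 difference of -1.14 (limma adjusted p = 0.0152) and a call lost without control replicate 1 (adjusted p = 0.0531) or control replicate 3 (0.0822). Of the laminin chains, the ligands of ITGA3 and ITGA6, 7 of 10 were tested and 0 passed the threshold by limma, with 1 at an unadjusted p under 0.05. The most abundant, LAMB1 and LAMC1, were at 88.2 ± 3.88 and 79.6 ± 9.23 FPKM without and at 84.3 ± 15.9 and 78.1 ± 18.3 FPKM with OFD1 depletion (SD, n = 3).

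Talins, kindlins and Rap1 proteins switch integrins to the binding state from inside the cell. Of 8 such activators 6 were tested, with 1 lower and 1 higher. FERMT2, which encodes kindlin-2, was 42.4, 46.7 and 43.5 FPKM in control samples and 72.5, 57.1 and 70.0 FPKM in OFD1-depleted samples, a log2 difference of 0.58 (SE 0.133, limma adjusted p = 0.0120), and the call was lost without control replicate 1 or 3 or OFD1-depleted replicate 1 (adjusted p from 0.0533 to 0.0684) and after scaling to the same total (0.0632). RAP1A, encoding a small GTPase, was at a log2 difference of -0.53 (limma adjusted p = 0.0406), a call lost when any sample other than OFD1-depleted replicate 2 was left out, with adjusted p from 0.0602 to 0.141, or under median-of-ratios scaling (0.0710) or quantile normalization (0.0803). All 5 genes listed as inhibitors, which hold integrins in the resting state, were tested and 0 passed the threshold by limma, with 0 at an unadjusted p under 0.05. The most abundant of them was FLNA, at 612 ± 99.2 FPKM without and 560.5 ± 78.4 FPKM with OFD1 depletion (SD, n = 3). Of 16 linkers between integrins and actin 14 were tested, and ZYX, which encodes the focal adhesion protein zyxin, was the 1 past the threshold. It was 319, 313 and 324 FPKM in control samples and 483, 565 and 430.3 FPKM in OFD1-depleted samples, a log2 difference of 0.62 (limma adjusted p = 0.0124), with the call lost without control replicate 1 (adjusted p = 0.0635) or control replicate 3 (0.0521).

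Of 13 genes that signal from adhesions 12 were tested, with 2 lower and 1 higher. YES1, which encodes a kinase of the Src family, was 21.5, 22.4 and 18.6 FPKM in control samples and 4.44, 3.20 and 3.27 FPKM in OFD1-depleted samples, a log2 difference of -2.50 (SE 0.160, limma adjusted p = 1.01e-05). SRC and FYN, of the same kinase family, did not pass the threshold. ARHGEF7, which encodes the exchange factor beta-PIX, was lower by 0.76 on the log2 scale (-0.76, adjusted p = 0.00515). NEDD9, a docking protein of the p130Cas family, was higher at 0.56 (adjusted p = 0.0179), a call lost after scaling to the same total (0.106) and whenever a sample other than OFD1-depleted replicate 2 was left out (0.0540 to 0.0785).

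All 12 membrane partners of integrins were tested, with 3 lower and none higher, beside 11.9% lower and 5.07% higher over all genes tested. SDC4, encoding syndecan-4, the heparan sulfate co-receptor of alpha-5 beta-1 on fibronectin, was 83.7, 91.8 and 92.0 FPKM in control samples and 27.8, 25.4 and 24.5 FPKM in OFD1-depleted samples. Its log2 difference was -1.78 (SE 0.121, limma adjusted p = 1.1e-05), and its 3 OFD1-depleted values lay far below the control values, with little spread. SDC1, encoding syndecan-1, was at -1.32 (adjusted p = 0.00016), and PLAUR, the urokinase receptor, at -0.86 (adjusted p = 0.00224). Of 15 genes of integrin endocytosis and recycling 13 were tested, and RASA1, encoding a GTPase-activating protein for Ras, was the 1 past the threshold, at 15.3 ± 1.36 FPKM without and 8.87 ± 1.57 FPKM with OFD1 depletion (SD, n = 3, log2 difference -0.79, limma adjusted p = 0.00606).

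**Figure D4:**
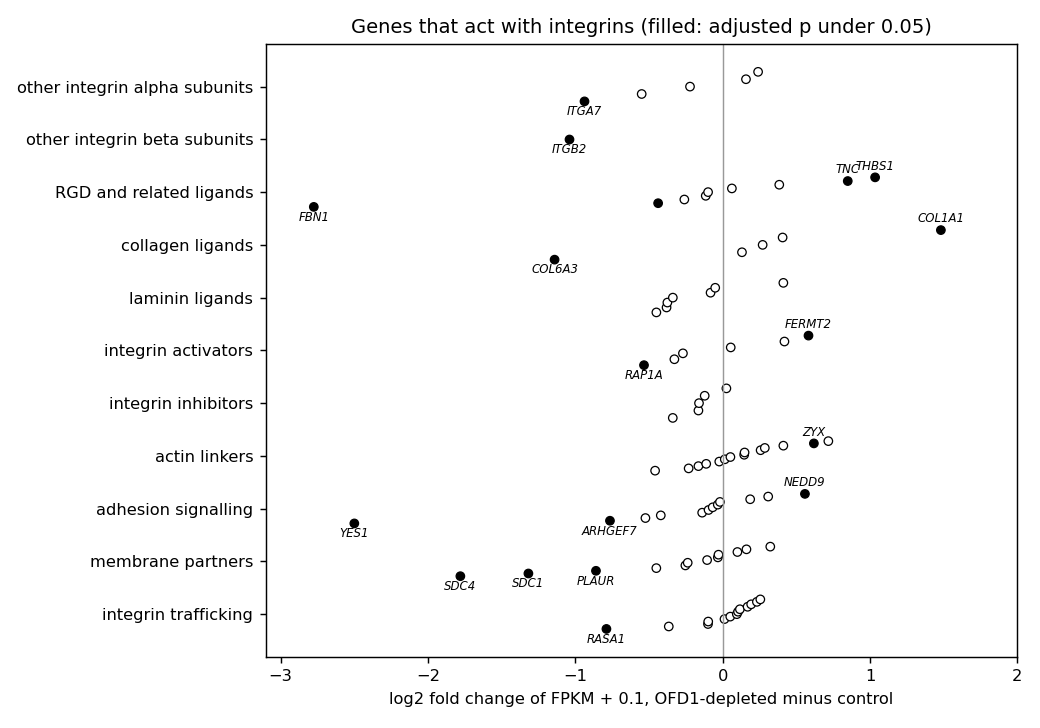
The log2 fold change of FPKM + 0.1, OFD1-depleted minus control, of each tested gene in 11 lists of genes that act with integrins, filled where the adjusted p was under 0.05. FBN1 at -2.78, YES1 at -2.50 and SDC4 at -1.78 lie farthest to the left and COL1A1 at 1.48 and THBS1 at 1.04 farthest to the right, while no laminin and no inhibitor is filled.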

How the data were processed

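RNA-seq was analysed in 6 hTERT-RPE1 samples with an inducible hairpin against OFD1, 3 control and 3 OFD1-depleted, grouped by their labels. Per the labels, the authors aligned reads to GRCh38 with HISAT2 2.0.5 and used StringTie, and they deposited 1 FPKM value per gene and sample. No counts were used. The labels name 2 library kits, of which 1 marks strand, and the methods of the study name a directional kit for its RNA-seq. The strand setting of the quantification is not given in the sources used here, so overlapping and antisense genes are uncertain. Of the genes overlapping the 10 subunits on the opposite strand, ITGB1-DT was highest, at a mean of 1.31 FPKM. The labels give a cell line, yet their extraction text speaks of retinas. Depth was estimated from the steps between low values of single-exon genes as about 37500000 to 44100000 fragments, but only 18.2% to 24.2% of these values lay on whole multiples (tolerance 0.02), so it entered no test and no counting interval is given. The summed FPKM was 408302 to 414547 in control and 433262 to 493510 in OFD1-depleted samples.

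Genes averaging 1 FPKM or more were compared on log2(FPKM + 0.1) with limma 3.58.1 in R 4.3.3, letting the variance follow mean expression, two-sided, with Benjamini-Hochberg adjustment over all 12025 genes and a threshold of 0.05. The procedure was run on simulated data with independent normal noise drawn from the variances that limma fitted. That simulation held no trend with mRNA length and no outlying sample, so it cannot show how the test behaves with OFD1-depleted replicate 2. Sums, shares and ratios were compared by exact permutation over samples. Alternatives were other pseudocounts, filters, scalings, weights, a replicate block and leaving out each sample. Removal of a length trend was chosen after seeing the data. mRNA lengths came from the canonical transcripts of GENCODE 44 and were found for 99.8% of tested genes. The subunits and the lists of genes were chosen with earlier results of these data known. Named genes were all subunits, OFD1 and, per list, up to 3 called genes with the largest differences and no overlap of groups, or else the 2 of highest level. Genes named beyond that rule, such as CCN1, FN1, SRC, FYN, ITGA10, ITGA11, ITGB4, ITGB6, PELO and ITGB1P1, were chosen after their values were seen. Of the 10 subunits, 8 matched the RefSeq promoter windows by symbol, and where several windows were listed the one nearest the outer end of the gene was used. Python 3.11.15, pandas 2.3.3 and matplotlib 3.10.9 were used. Some results of the gene and marker lists are not reported here.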

Additional observations from a re-analysis of the deposited data

How the results depend on the processing

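Under 17 alternatives, ITGA3, ITGB5 and, where tested, ITGB3 kept their direction and their call in all of them, and ITGA6 and ITGB8 lost theirs only with no filter on low values (adjusted p = 0.0579 and 0.0649). ITGA5 kept its direction throughout and its call in 8 of 17. With no filter, which tests 28501 genes, 1083 genes, 3 subunits (2 lower, 1 higher) and 10 genes acting with integrins passed the threshold. A filter at 5 FPKM tested 6 subunits, without ITGB3 and ITGB8, which left 0 higher. Array weights called 3956 genes (42.8% of them higher, against 29.92%) and 31 acting with integrins. Removal of the length trend, chosen after seeing the data, called 3165 (52.48% higher) and 31. Leaving out 1 sample at a time gave 1138 to 2863 genes, 5 to 6 subunits and 11 to 26 genes acting with integrins, and the counts of genes and of genes acting with integrins were lowest without control replicate 1 or 3 and highest without OFD1-depleted replicate 2. The median log2 difference of the 10 subunits ranged from -0.37 to 0.03 in these. Quantile normalization gave 45.51% higher and scaling to the same total 11.95%. No subunit that passed the threshold turned direction in any of these. Among genes not past it, the sign of the log2 difference turned for ITGA2 (0.0397 without the length trend, -0.294 to 0.0926 leaving out samples), ITGAV (0.0203 with array weights, -0.342 to 0.104 leaving out samples), ITGB1 (-0.0815 scaled to the same total, -0.195 after quantile normalization, -0.0454 to 0.266 leaving out samples), LAMB1 (0.0365 with array weights, 0.0849 without the length trend, -0.179 to 0.0842 leaving out samples), LAMC1 (0.0018 with median-of-ratios scaling, 0.0644 with array weights, 0.146 without the length trend, -0.159 to 0.162 leaving out samples) and FLNA (0.0811 without the length trend). The cause was not tested. Samples with the same replicate number deviated together only weakly (correlations 0.0579, 0.0481 and 0.0110), so the numbers were not taken as pairs. With them as a replicate block, 2296 genes, 6 subunits and 23 genes acting with integrins passed the threshold, and no call among the 10 subunits changed. How depth limits each subunit could not be given, since no counts were used.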
